A study of Mus musculus with 27 samples.

Results

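The cytosolic ribosomal protein genes were taken by symbol from the probe annotation of a mouse bead array. A gene belonged when its symbol had the form Rpl or Rps with a number, with any letter or "l" that marks a paralogue, or was Rpsa, Rplp0, Rplp1 or Rplp2. Mitochondrial ribosomal proteins, pseudogenes and S6 kinase genes were left out. The rule gave 63 of the 19057 named genes on the array, 38 of the large and 25 of the small subunit. Of these, 58 passed the filter on dim probes and were compared between cell types, 35 of the large and 23 of the small subunit.

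Levels were measured on 27 arrays of C57BL/6 mouse cells in 8 groups. CD8 Tnaive cells came from spleen at 6 to 8 weeks (5 arrays), and BM-DC from bone marrow at day 7 (3 arrays). Neurons came from brain at embryonic day 15 to 16, and astrocytes and cells labelled microglia from brain at day 3 (3 arrays each). ESdM 22 and ESdM 20 are lines grown from embryonic stem cells for more than 51 days (3 arrays each), and MF came from bone marrow at day 7 (4 arrays). MF and BM-DC stand unexplained in the labels and are taken here to be macrophages and dendritic cells. No treatment or transgene is named for any group. Tissue and age differ along with cell type in several comparisons and cannot be told apart from it. The replicates are numbered but not said to be separate cultures or animals. A p-value thus weighs a group difference only against the spread within groups, pooled over all 8, and that spread may be technical.

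The cytosolic ribosome has a small subunit, which reads the mRNA, and a large subunit, which joins the amino acids. Most ribosomal proteins are needed in equal amounts, and the subunits are assembled in the nucleolus with the help of many biogenesis factors. Most vertebrate ribosomal protein mRNAs begin with a run of pyrimidines at the 5′ end, through which mTORC1 and the RNA-binding protein Larp1 control their translation. A few ribosomal proteins have a paralogue, encoded by a second gene, that can take the same place or has a role of its own.

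Start-site sequences of 12 genes described below are shown because that run is the feature the family is best known for. They are the 9 genes with the largest range over the group means, with Rps27l, Rps9 and Rpl13a added after their values were seen. A promoter window was found for 52 of the 63 genes in the RefSeq table (build GRCm38.p6), 62 windows in all. The lines below give 15 bases on either side of the annotated start, 5′ to 3′ on the gene's strand. Capitals mark what lies in these 30 bases of a pyrimidine tract, here a C followed by at least 7 of C or T within 25 bases of the start.
Rps15a (chr7:118116133-118116162, minus): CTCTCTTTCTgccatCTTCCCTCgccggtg
Rpl7a (chr2:26910792-26910821, plus): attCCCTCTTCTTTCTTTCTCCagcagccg
Rps9 (chr7:3704026-3704055, plus): accgccttgtCTCTCTTTgtctcgggcctg
Rpl13a (chr7:45128731-45128760, minus): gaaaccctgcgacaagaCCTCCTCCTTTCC
Rpl4 (chr9:64173372-64173401, plus): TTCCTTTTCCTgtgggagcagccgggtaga
Rpl22l1 (chr3:28805493-28805522, plus): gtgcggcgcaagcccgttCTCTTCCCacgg
Rps27l (chr9:66946071-66946100, plus): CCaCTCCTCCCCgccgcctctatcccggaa
Rpl22 (chr4:152325711-152325740, plus): ttcgccctgggaaaagcaatagctggccga
Rpl24 (chr16:55966260-55966289, plus): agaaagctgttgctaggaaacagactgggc
Rps7 (chr12:28635939-28635968, minus): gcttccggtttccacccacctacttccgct
Rpl27 (chr11:101442230-101442259, plus): acgctctgttcctgtctgctgctcgtgctg
Rpl12 (chr2:32961697-32961726, plus): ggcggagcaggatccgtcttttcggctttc

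The first 7 lines carry a tract by this rule and the last 5 do not. The rule also takes tracts before the start, so a tract need not lie in the mRNA. The bases marked in Rpl4 and Rps27l lie wholly before the annotated start. Over the whole set, 41.9% of the 62 ribosomal protein windows held such a tract, against 15.5% of the 32851 windows in the table. The letters CCGGAAG, the core bound by ETS factors, stood on either strand in 38.7% of the ribosomal protein windows of 300 bases and in 8.86% of all windows. AAGATGG, a core of the YY1 site, stood in 12.9% against 6.34%, and TATAAA in 9.68% against 13.6%. These matches describe letters in a window around the annotated start, and no binding or start-site data were at hand.

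The arrays gave 14247 to 17533 detected probes each, and their median raw intensity was 27.6 to 28.6 on the BM-DC arrays, against 80.1 to 113 on the others. Values are log2 normalized intensities, on which undetected probes lay near 4.3, and a difference of 1 is a doubling. Of the marker lists of their own label, CD8 Tnaive arrays detected 8 of 9 genes throughout, BM-DC 7 of 10, neurons 8 of 11, astrocytes 9 of 10 and MF 11 of 11. Undetected were Cd8a in CD8 Tnaive cells, Flt3 and Zbtb46 in BM-DC, and Tubb3, Snap25 and Nefl in neurons. Of the dendritic cell list MF detected 5 of 10 throughout, and H2-Ab1 averaged 12.47 in BM-DC and 9.85 in MF. CD8 Tnaive arrays also detected 5 of 10 dendritic cell genes throughout, and 4 of 11 macrophage lineage genes (mean over the latter list 5.43 to 6.70). On the arrays labelled microglia, 4 of 11 microglia core genes and 10 of 11 macrophage lineage genes were detected throughout, with Tmem119, P2ry12, Cx3cr1, Fcrls, Olfml3 and Siglech undetected. The astrocyte arrays detected 9 of 11 genes of either list. In bulk samples such as these, fewer cells of a type and less RNA per cell cannot be told apart.

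Ribosomal protein genes were highest in naive CD8 T cells and lowest in astrocytes. The median over the 58 genes was 12.92 to 13.07 on the 5 CD8 Tnaive arrays, 12.17 to 12.36 on the BM-DC arrays, 11.48 to 11.72 on the neuron arrays and 10.97 to 11.27 on the astrocyte arrays. It was 12.36 to 12.45 in ESdM 22, 12.27 to 12.41 in ESdM 20, 12.37 to 12.41 on the arrays labelled microglia and 11.69 to 11.91 in MF. The array medians of CD8 Tnaive cells and of astrocytes overlapped with those of no other group, and those of neurons and MF overlapped with each other. ESdM 22, ESdM 20 and the microglia-labelled arrays overlapped, and BM-DC overlapped with ESdM 20 alone.

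**Figure D1:**
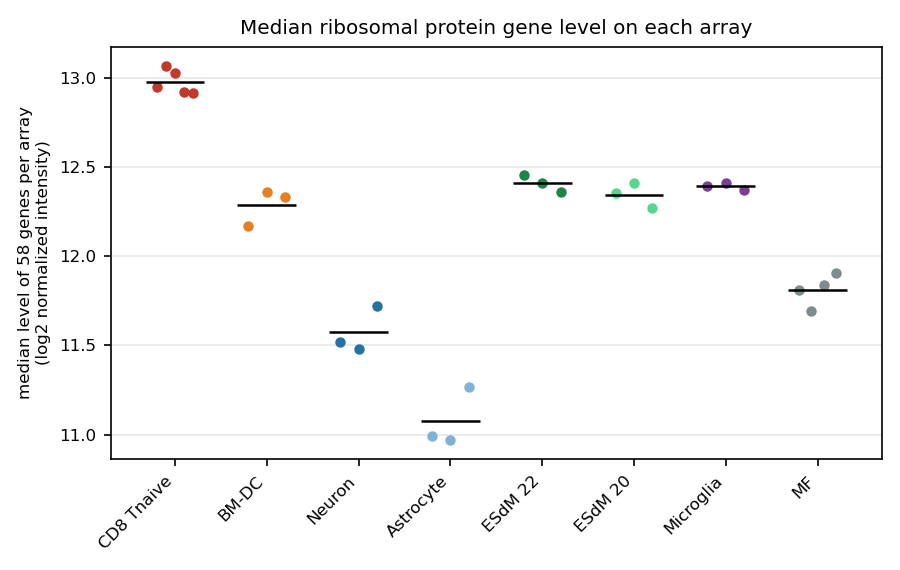
Median log2 normalized intensity of the 58 tested ribosomal protein genes on each of the 27 arrays (points), with the mean of each group as a line. The CD8 Tnaive arrays sit between 12.92 and 13.07, above all other arrays, and the astrocyte arrays between 10.97 and 11.27, below all others.

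By group mean, 36 of the 58 genes (62.1%) were highest in CD8 Tnaive cells, where 17.6% of all 12814 tested genes were highest. In astrocytes 34 (58.6%) were lowest, against 12.6% of all genes. BM-DC held the highest mean for 10 of the genes (17.2%, against 12.8% of all genes) and the lowest for 11 (19%, against 16.2%), shares near those of all genes. The range over the 8 group means had a median of 1.68 for the ribosomal protein genes and 1.93 for all genes.

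Rpl12, a protein at the base of the ribosomal stalk, had the widest range among the genes highest in CD8 Tnaive cells and lowest in astrocytes, with 13.51 ± 0.15 in CD8 Tnaive cells (SD, n = 5) and 10.10 ± 0.43 in astrocytes (SD, n = 3). Across the 8 group means its Pearson correlation with the median of the set was 0.984, and that of Rplp0, the stalk protein that carries Rplp1 and Rplp2, was 0.989. These are descriptions over groups that share normalization, and each gene is part of the median. The correlation was below 0 for 5 genes, Rps4l (-0.749), Rps27l (-0.592), Rpl22 (-0.406), Rps14 (-0.289) and Rpl3l (-0.095). Rps4l and Rpl3l were detected on 9 and 11 arrays and averaged 4.71 and 4.76, so their correlations rest largely on values near the level of undetected probes. Rps14, a small-subunit protein, is no paralogue or parent of one here and spanned 0.52. Rpl7a spanned 6.79 on the log2 scale, Rpl24 6.75 and Rps15a 4.99, each set by 1 group. At the other end Rpsa, near the level of undetected probes, spanned 0.25, Rpl23 0.37 and Rpl3, which lies near the peptidyl transferase centre, 0.46. The small range of Rpl23 holds for the probe used, since another bright probe of the gene was called higher in CD8 Tnaive cells than in MF by 1.10.

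**Figure D2:**
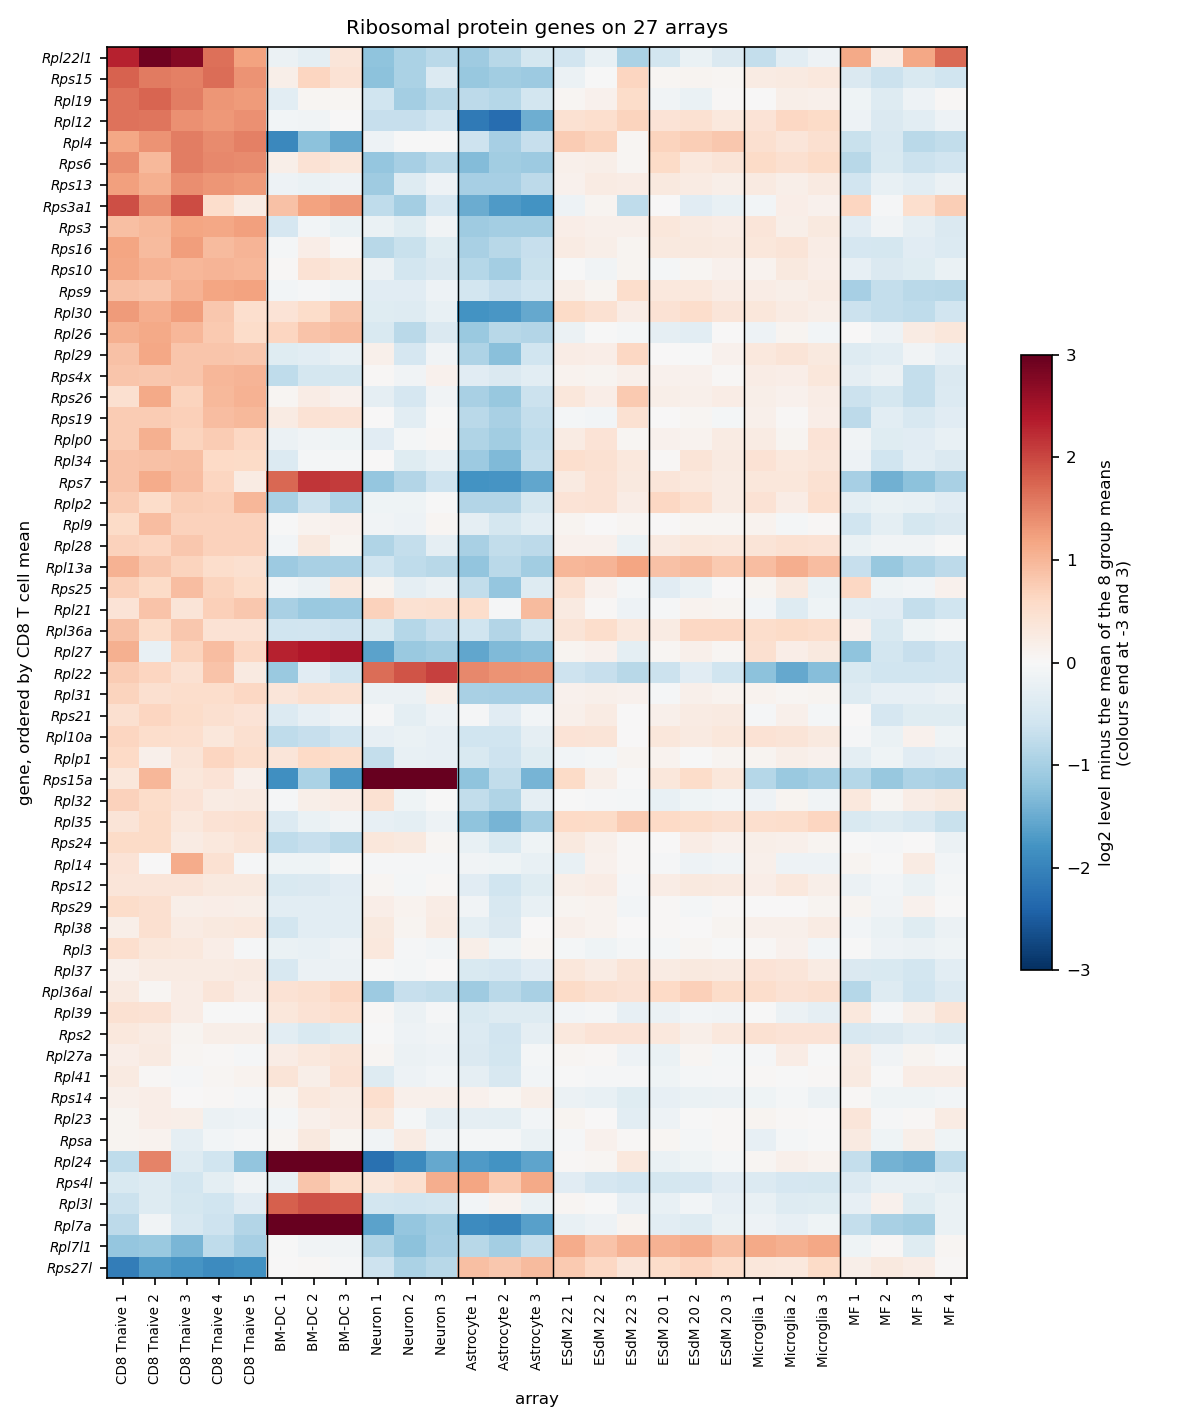
Level of each of the 58 tested genes (rows) on each array (columns) relative to the mean of the 8 group means of that gene, in log2 units, with colours ending at -3 and 3. Most rows are red in the CD8 Tnaive arrays and blue in the astrocyte arrays, while Rpl7a, Rpl24, Rpl27 and Rps7 stand out in BM-DC, Rps15a in neurons, and Rps27l runs the other way.

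A gene was called when the limma test gave a Benjamini-Hochberg adjusted p below 0.05 over all 12814 genes and the groups differed by at least 1 on the log2 scale. The 7 comparisons share arrays, MF in 3 of them, microglia in 3 and astrocytes in 2, so they are not independent of one another.

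In naive CD8 T cells, 26 of the 58 genes were called higher than in MF and 1 was called lower, where 14.4% of all genes were called higher and 16.7% lower. The median difference was 0.82 for the ribosomal protein genes and -0.01 for all genes. Of the small subunit 12 of 23 were called higher (median 1.29), and of the large subunit 14 of 35 (median 0.80). By adjusted p alone 45 were higher and 3 lower, with 27.9% and 30.3% of all genes.

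Rps15, a small-subunit protein close to the decoding site, had 12.17, 11.96, 11.91, 12.09 and 11.75 on the CD8 Tnaive arrays, against 9.97, 9.76, 9.96 and 9.82 on the MF arrays. The groups were far apart, with a log2 difference of 2.10 (SE 0.15, limma adjusted p = 2.78e-12). Rpl4, which lines the exit tunnel for the new peptide, had 10.68, 10.85, 11.05, 10.93 and 11.03 in CD8 Tnaive cells and 8.85, 9.02, 8.69 and 8.76 in MF. Every CD8 Tnaive array was above every MF array, and the difference was 2.08 (SE 0.13, limma adjusted p = 4.20e-13). Rps6, the substrate of the S6 kinases, had 12.88, 12.44, 13.01, 12.91 and 12.89 in CD8 Tnaive cells and 10.65, 11.03, 10.84 and 10.91 in MF. Its difference was 1.97, with 1 CD8 Tnaive array below the other 4 but still above all MF arrays. Rps9, a small-subunit protein at the mRNA entry, had 13.68, 13.63, 13.85, 13.998 and 14.01 in CD8 Tnaive cells and 11.82, 12.10, 11.99 and 11.98 in MF, a difference of 1.86.

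The other genes among the 10 with the largest rise were Rps7 (1.92), Rpl12 (1.71), Rpl30 (1.66), Rpl19 (1.65), Rpl13a (1.58) and Rps13 (1.58). Rpl30 is known in yeast to bind and control its own transcript, and Rpl19 forms a bridge to the small subunit. None of these 6 had overlapping groups. Of the stalk, which recruits the elongation factors, Rplp0 had a difference of 1.03, Rplp2 1.01 and Rplp1 0.73, the last under the minimum for a call. The Rplp0 call was lost without MF array 2 (0.99) or CD8 Tnaive array 2 (0.96), and the Rplp2 call without MF array 4 (0.99) or CD8 Tnaive array 5 (0.95). Among genes mutated in Diamond-Blackfan anaemia, a human failure of red cell formation, 12 of 20 listed were tested and 7 were called higher in CD8 Tnaive cells, with a median of 1.24.

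Rps27l was the 1 gene called lower in CD8 Tnaive cells. It encodes a paralogue of Rps27 and is known as a target of p53. Its level was 10.10, 10.49, 10.40, 10.29 and 10.36 in CD8 Tnaive cells, against 12.34, 12.47, 12.41 and 12.21 in MF. The groups did not overlap, and the log2 difference was -2.03 (SE 0.10, limma adjusted p = 1.07e-15). Cdkn1a, another p53 target, had a difference of -4.73 (mean 5.45 in CD8 Tnaive cells and 10.18 in MF). Mdm2, a further p53 target among the growth control genes, was called in neither direction in this comparison.

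Red cell transcripts moved with this comparison. Of 4 named erythroid markers, Hba-a1 and Alas2 were detected on all CD8 Tnaive arrays and none of the 4 on all MF arrays. The mean over the list was 6.09 to 7.32 on the CD8 Tnaive arrays and 4.36 to 4.47 on the MF arrays. Hba-a1 alone was 10.32 to 12.66 in CD8 Tnaive cells and undetected in MF. The part of these transcripts in the result was not tested. CD8 Tnaive array 2 had the fewest detected probes of all arrays, and leaving out any array of either group left 24 to 26 ribosomal protein genes called higher. CD8 Tnaive cells and MF were on chips of their own, so chip and group cannot be told apart.

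**Figure D3:**
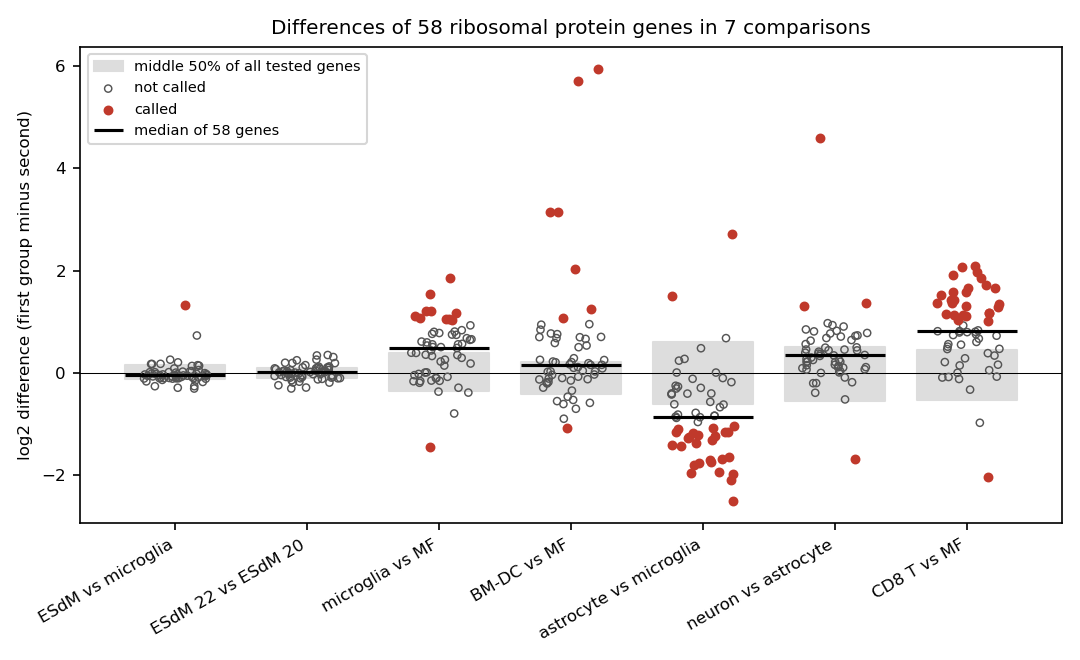
Log2 difference of each of the 58 tested genes in the 7 comparisons (first group minus second), with called genes filled, the median of the 58 as a line and the middle 50% of all 12814 genes as a grey band. The median lies at 0.82 for CD8 T cells against MF and at -0.86 for astrocytes against microglia, while ESdM against microglia and the ESdM lines against each other stay close to 0.

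BM-DC differed from MF in a few ribosomal protein genes by large amounts. There were 7 called higher and 1 lower of 58 (12.1% and 1.72%), where 7.51% of all genes were called higher and 10.2% lower. The share called higher was thus somewhat above that of all genes and the share called lower was below it. A few of the differences were large. Rpl24, a protein of the bridge between the subunits and the gene mutated in the Belly spot and tail mouse, had 12.59, 13.01 and 12.75 in BM-DC, against 7.205, 6.51, 6.45 and 7.17 in MF. That is a log2 difference of 5.95, or 61.8-fold (SE 0.36, limma adjusted p = 4.24e-13). Outside BM-DC its level was at most 8.24, save CD8 Tnaive array 2 with 9.41. Rpl7a, a large-subunit protein, had 11.33, 11.55 and 11.38 in BM-DC, against 5.73, 5.48, 5.41 and 6.26 in MF. The difference was 5.70, or 52.0-fold (SE 0.18, limma adjusted p = 6.81e-19), and no array outside BM-DC exceeded 6.52.

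Rpl27 had 12.87, 12.95 and 13.03 in BM-DC and 9.36, 10.002, 9.86 and 9.99 in MF, 8.88-fold higher. Rps7 had 12.68, 13.12 and 13.05 in BM-DC and 9.96, 9.52, 9.73 and 9.995 in MF, 8.86-fold higher. Both genes are mutated in some patients with Diamond-Blackfan anaemia, and in both the BM-DC arrays were above every other array of the series. Rpl3l, the striated muscle paralogue of Rpl3, had 6.59, 6.70 and 6.69 in BM-DC and 4.56, 4.92, 4.44 and 4.61 in MF, where 2 of 4 arrays detected it. Its parent Rpl3 differed by -0.07 (limma adjusted p = 0.698). Without background correction the Rpl3l difference was 0.76, under the minimum for a call. Rpl30 (1.26) and Rpl36al (1.08) completed the genes called higher. The Rpl36al call was lost without MF array 1 (0.98).

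**Figure D4:**
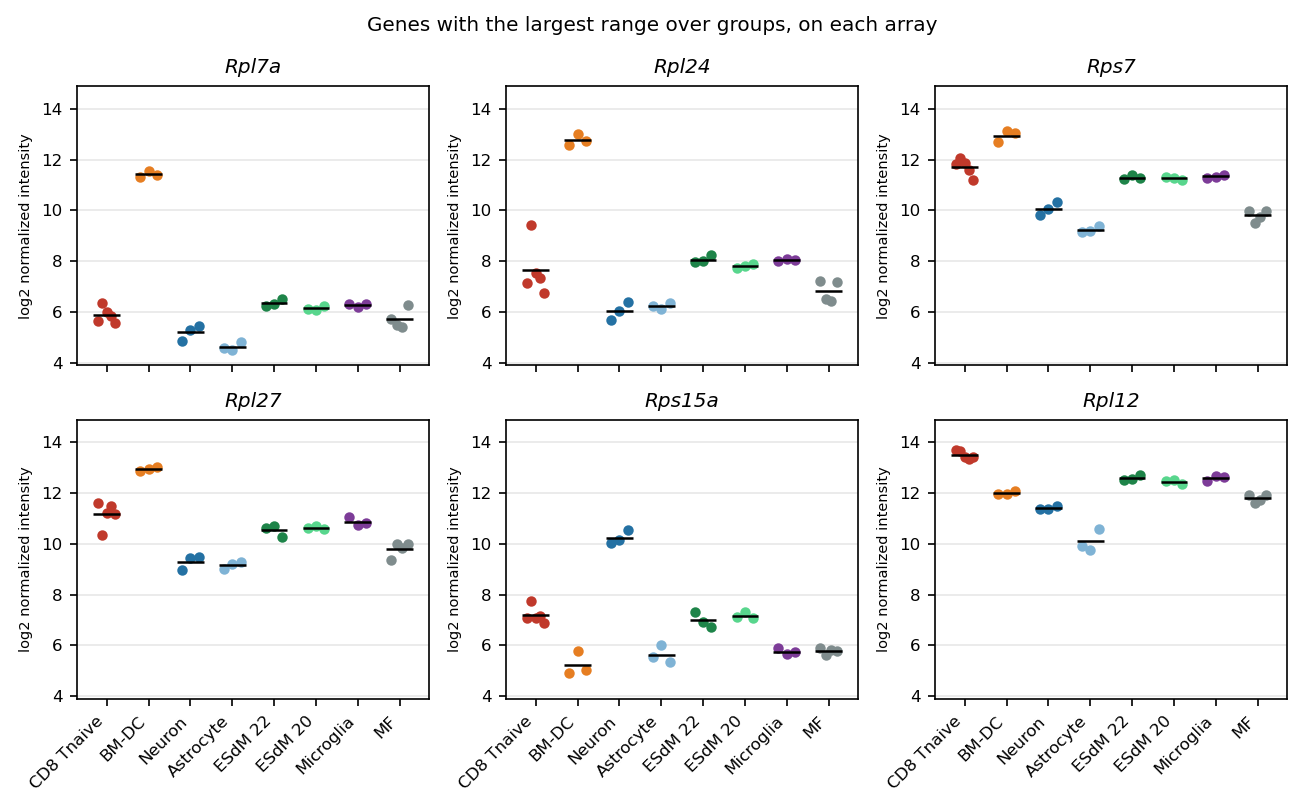
Log2 normalized intensity of the 6 genes with the largest range over the groups on each array (points), with group means as lines. Rpl7a and Rpl24 are high in BM-DC (11.42 and 12.78 on average) and Rps15a in neurons (10.24), each apart from all other groups, while Rpl12 is highest in CD8 Tnaive cells and lowest in astrocytes.

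Each of Rpl24, Rpl7a, Rpl27, Rps7 and Rps15a was read by 1 probe past the filter, so no other probe of the gene bears on these sizes. All BM-DC arrays were on 1 chip that held no other group and had the lowest median raw intensities of the series, so chip and group cannot be told apart. The BM-DC arrays also detected 9 of 10 granulocyte and mast cell markers on every array, with a mean over the list of 6.22 to 6.63, against 3 of 10 and 4.81 to 4.90 on the MF arrays. The part of these cells in the result was not tested. The median ribosomal protein difference was 0.16 on the log2 scale. Under median scaling it was 0.02, with a median of all genes of -0.10, and 25.7% of all calls were then higher in place of 42.5%. By adjusted p alone 21 genes were higher and 10 lower, with 18.1% and 24.8% of all genes.

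In astrocytes, 26 of 58 ribosomal protein genes were called lower than on the arrays labelled microglia and 2 were called higher, where 16.6% of all genes were called lower and 18.8% higher. The median difference was -0.86, against -0.02 for all genes. Rpl12 had 9.94, 9.77 and 10.59 in astrocytes, against 12.48, 12.69 and 12.64 on the arrays labelled microglia, a log2 difference of -2.50 (SE 0.15, limma adjusted p = 7.42e-14). Rps7 had 9.17, 9.18 and 9.39 in astrocytes and 11.29, 11.31 and 11.41 in microglia, a difference of -2.09. Rpl13a, which in human monocytes leaves the ribosome to silence inflammatory mRNAs, had 8.27, 8.64 and 8.41 in astrocytes and 10.37, 10.54 and 10.36 in microglia, a difference of -1.98. The groups were separate in all 3 genes.

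Genes of both subunits were called lower, 17 of 35 of the large and 9 of 23 of the small. After Rpl12, Rps7 and Rpl13a the largest falls were in Rpl7l1 (-1.97), Rpl30 (-1.95), Rpl24 (-1.81), Rpl35 (-1.77), Rps3a1 (-1.74), Rpl27 (-1.71) and Rps6 (-1.69). Rpl35 sits beside the mouth of the exit tunnel. Of the stalk, Rplp0 and Rplp2 were both called lower, by -1.15 each, and Rplp1 had -0.61. The calls of Rps10 and Rps26 were lost without astrocyte array 2 (-0.96 and -0.99). By adjusted p alone 44 genes were lower and 4 higher, with 29.6% and 29.5% of all genes.

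Rpl22 went the other way. This RNA-binding protein of the large subunit is required for the development of αβ T cells in the mouse. It had 10.44, 10.33 and 10.31 in astrocytes, against 7.76, 7.45 and 7.70 on the arrays labelled microglia, 6.60-fold higher (log2 difference 2.72, SE 0.16, limma adjusted p = 6.81e-14). Rps4l, a paralogue of Rps4x, had 5.92, 5.53 and 5.88 in astrocytes and was not detected in microglia, which makes it at least 2.20-fold higher. That bound takes the lowest detected value of each microglia array in place of the level, and the fitted difference was 0.48 without background correction, under the minimum for a call. The macrophage lineage list had a mean of 8.53 to 9.08 on the astrocyte arrays and 8.40 to 8.56 on the arrays labelled microglia. Astrocytes and microglia had no chip in common, so chip and group cannot be told apart.

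Neurons stood above astrocytes in most ribosomal protein genes by less than the minimum for a call. The median difference was 0.35, against 0.00 for all genes, and 3 of 58 genes were called higher and 1 lower, where 14.8% of all genes were called higher and 17.6% lower. Under median scaling the median difference was 0.11, with a median of all genes of -0.06. By adjusted p alone 32 were higher and 2 lower, with 27.3% and 28.4% of all genes. These groups shared 1 chip. Without astrocyte array 3 or neuron array 2 the count called higher was 5, with Rpl35 among them (1.06 and 1.01, against 0.97 with all arrays).

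The neuron arrays lay above every other array of the series in Rps15a, a small-subunit protein, and in Rpl22, which is described with the paralogues. Rps15a had 10.04, 10.14 and 10.54 in neurons, against 5.55, 6.02 and 5.35 in astrocytes, 24.2-fold higher (log2 difference 4.60, SE 0.22, limma adjusted p = 6.02e-16). No array outside the neurons exceeded 7.74. Rpl30 had 8.48, 8.47 and 8.62 in neurons and 7.06, 7.11 and 7.30 in astrocytes, a difference of 1.36. Rpl12 had 11.37, 11.37 and 11.49 in neurons and 9.94, 9.77 and 10.59 in astrocytes, a difference of 1.31. In all 3 genes the neuron arrays lay above the astrocyte arrays.

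Rps27l was again the gene called lower, with 11.55, 11.24 and 11.34 in neurons, against 13.07, 12.99 and 13.13 in astrocytes (log2 difference -1.69, SE 0.12, limma adjusted p = 3.03e-12). Of the growth control genes, the p53 targets Cdkn1a and Mdm2 were called lower in the same comparison, by -3.49 and -1.54. In BM-DC against MF, Cdkn1a had a difference of 1.47 and Rps27l one of -0.18, which missed the threshold. Macrophage lineage markers were detected throughout in 1 of 11 cases on the neuron arrays (mean 4.37 to 4.43) and in 9 of 11 on the astrocyte arrays. Astrocyte markers were detected throughout in 7 of 10 cases on the neuron arrays (mean 6.41 to 7.51). Neuron markers were detected throughout in 4 of 11 cases on the astrocyte arrays (mean 5.91 to 5.95). The part of other cell types in the differences was not tested.

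The arrays labelled microglia stood above MF in 10 of 58 ribosomal protein genes and below it in 1, where 11% of all genes were called higher and 11.5% lower. The median difference was 0.50, against 0.01 for all genes. Rpl13a had 10.37, 10.54 and 10.36 on the microglia arrays, against 8.76, 8.30, 8.52 and 8.66 in MF, a log2 difference of 1.86 (SE 0.13, limma adjusted p = 3.12e-12). Rps7 had 11.29, 11.31 and 11.41 in microglia and 9.96, 9.52, 9.73 and 9.995 in MF, a difference of 1.54. The other genes called higher were Rpl7l1 (1.22), Rpl24 (1.21), Rps6 (1.16), Rpl4 (1.11), Rpl27 (1.08), Rps9 (1.06), Rpl35 (1.05) and Rpl36al (1.04).

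Under median scaling in place of quantile normalization, Rpl13a and Rps7 were the 2 genes still called higher. That scaling moved the median of all genes to -0.12 and that of the ribosomal protein genes to 0.08, and 23.2% of all calls were then higher in place of 48.9%. Leaving out single arrays ended the calls of Rpl27 (0.99 without microglia array 1, 0.93 without MF array 1), Rpl36al (0.95 without MF array 1) and Rpl35 (1.00 without MF array 4). The gene called lower was Rpl22l1, at -1.45, which was -0.63 without background correction and no longer called. By adjusted p alone 36 genes were higher and 3 lower, with 24.8% and 23.4% of all genes. Microglia and MF were on different chips, so chip and group cannot be told apart.

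The ESdM lines had ribosomal protein levels near those of the arrays labelled microglia. Over both lines, 1 of 58 genes was called higher and 0 lower by limma, where 0.601% of all genes were called higher and 1.47% lower, and the median difference was -0.05. The gene was Rps15a, with 7.32, 6.93 and 6.74 in ESdM 22 and 7.11, 7.31 and 7.09 in ESdM 20, against 5.89, 5.65 and 5.73 in microglia. All 6 ESdM arrays were above the 3 microglia arrays, by 1.33 on average (SE 0.19, limma adjusted p = 1.42e-05). The difference was 0.66 without background correction and 0.73 on the deposited normalized table, under the minimum for a call. Within each of the 2 chips that hold these groups, 1 gene was called higher.

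Rpl22 passed the adjusted p alone, with 8.36, 8.30 and 8.16 in ESdM 22 and 8.34, 8.65 and 8.40 in ESdM 20, against 7.76, 7.45 and 7.70 in microglia (0.73, limma adjusted p = 0.000565). It and Rps15a were the 2 genes higher by that rule, with 6.35% of all genes higher and 5.85% lower. The next largest differences were Rps3a1 (-0.31), Rpl27 (-0.29) and Rps6 (-0.26), with adjusted p of 0.658, 0.46 and 0.175. Between the lines, 0 of 58 genes were called in either direction, with 0% of all genes called. By adjusted p alone 0 of the 58 genes passed by limma, with 0.0078% of all genes higher and 0.0156% lower. The largest differences of ESdM 22 minus ESdM 20 were Rps25 (0.35), Rpl19 (0.34), Rpl29 (0.31), Rps6 (-0.31) and Rpl28 (-0.29), each with a limma adjusted p of 1. The median difference between the lines was 0.01, and -0.11 under median scaling. Of 8 pluripotency genes that mark the starting cells, 6 were undetected in ESdM 20 and 5 in ESdM 22, Nanog and Sox2 among them in both. Zfp42 and Pou5f1 were among the undetected genes of neither line, and 1 gene of the list was detected on all ESdM 22 arrays. The mean over the list was 4.34 to 4.42 in ESdM 20 and 4.36 to 4.45 in ESdM 22, near the level of undetected probes.

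The paralogues and their parents differed in how closely they followed the median of the set. Over the 8 group means the correlation with it was 0.778 for Rpl36a, 0.761 for Rps4x, 0.739 for Rpl36al, 0.557 for Rpl22l1 and 0.246 for Rpl7l1, beside the values below 0 given above. Rpl22 averaged 10.85 ± 0.18 in neurons, 10.36 ± 0.07 in astrocytes, 9.58 ± 0.24 in CD8 Tnaive cells and 8.27 to 8.46 in BM-DC, MF and both ESdM lines. The BM-DC arrays overlapped with those of MF and of both lines, while the ESdM 22 arrays lay just below the MF arrays. It was lowest on the arrays labelled microglia, with 7.64 ± 0.17 (SD, n = 3). Rpl22l1, whose mRNA is repressed by the Rpl22 protein in the mouse, had 7.95, 8.57, 8.40, 7.30 and 6.85 in CD8 Tnaive cells, 5.48, 5.36 and 6.01 in BM-DC and 6.80, 5.87, 6.80 and 7.35 in MF. Its means in the 5 groups of neural, microglia-labelled and ESdM cells were 4.66 to 5.26, close to the level of undetected probes. CD8 Tnaive cells were thus above MF in both genes, by 1.15 for Rpl22 and 1.11 for Rpl22l1.

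The Rpl22l1 arrays of CD8 Tnaive cells and MF overlapped, and its call (limma adjusted p = 0.00145) was lost without MF array 2 (0.83), CD8 Tnaive array 2 (0.92) or CD8 Tnaive array 3 (0.96). BM-DC and MF overlapped too, with a difference of -1.09 (limma adjusted p = 0.00773) that lost its call without MF array 4 (-0.87), without BM-DC array 2 (-0.96) or without background correction (-0.51). For Rpl22 the difference from MF was -0.12 in BM-DC and -0.79 in microglia, the second past the adjusted p alone.

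Rpl7l1, a paralogue of Rpl7, averaged 9.96 on the arrays labelled microglia and 9.85 and 9.86 in ESdM 22 and ESdM 20, whose arrays overlapped. It averaged 8.77 in BM-DC and 8.74 in MF, again overlapping, and 8.00 in astrocytes, 7.80 in neurons and 7.77 in CD8 Tnaive cells. CD8 Tnaive cells were below MF by -0.98, just short of a call, while most of the set was higher there. Rpl36a and its paralogue Rpl36al, whose proteins are nearly the same, differed in BM-DC, where Rpl36a had -0.47 against MF and Rpl36al 1.08. In CD8 Tnaive cells against MF both were higher, by 0.76 and 0.79, and in astrocytes against microglia both were called lower, by -1.23 and -1.43. Of the pair Rps4x and Rps4l, the parent had a difference of 1.29 in CD8 Tnaive cells against MF, and Rps4l was detected on every array of astrocytes and of neurons and of no other group.

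**Figure D5:**
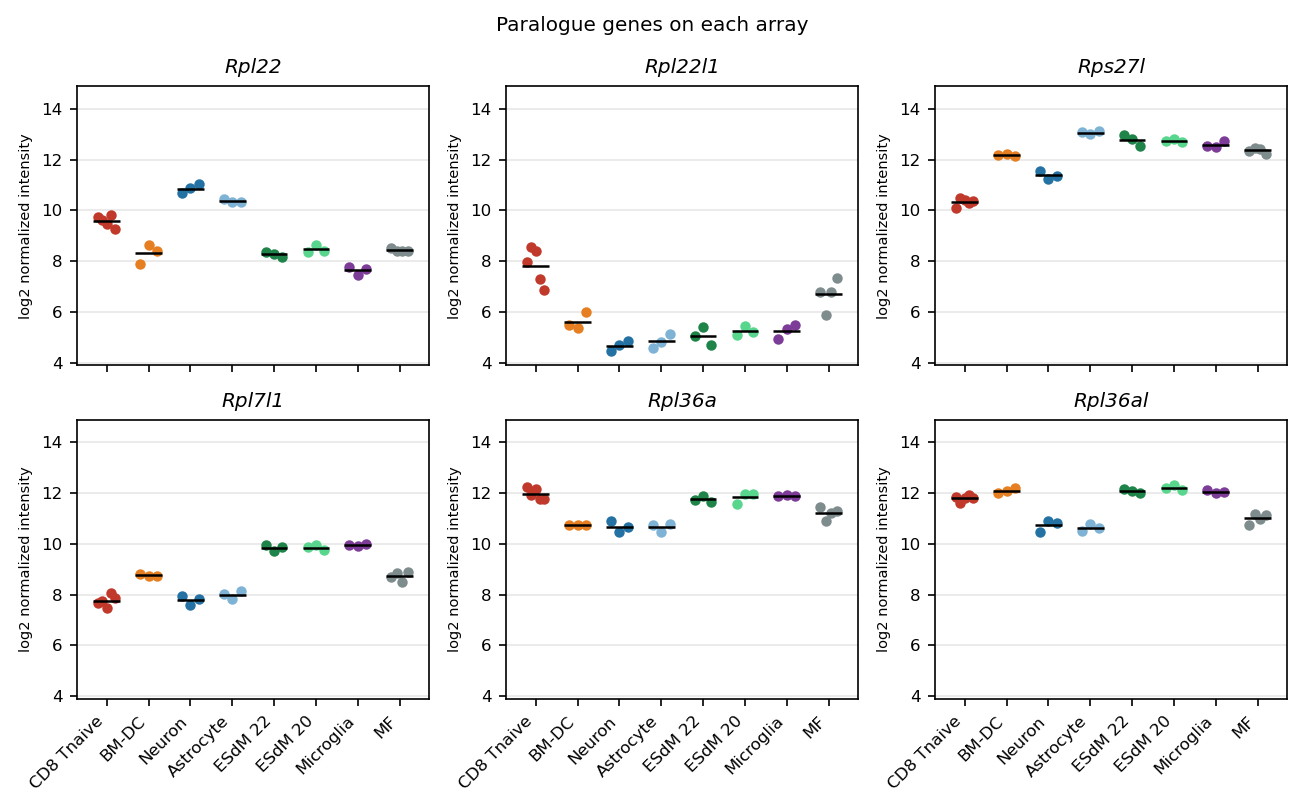
Log2 normalized intensity of 6 genes that are ribosomal protein paralogues or parents of one on each array (points), with group means as lines. Rpl22 is highest in neurons and astrocytes (10.85 and 10.36), Rpl22l1 in CD8 Tnaive cells (7.81) and MF (6.71), and Rps27l is lowest in CD8 Tnaive cells (10.33).

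The brightest probes of the set were those of Rpl41, Rps29 and Rps2, with means over all arrays of 14.19, 14.10 and 14.02. None of the 3 was called in any comparison, and the differences of Rps2 lay between -0.85 and 0.84. At the dim end, Rpl14 and Rpsa were detected on at most 4 arrays and had means of 4.43 and 4.48, which says nothing of the genes beyond these probes. The 5 genes that could not be tested were Rpl17 and Rpl39l, detected on no array, and Rpl6, Rps20 and Rps23, each detected on 1. Rpl5, Rpl11, Rpl7, Rps27 and Rps27a were not analysed here.

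Other probes of the same genes gave a partial check. Of the called genes, 10 further probes were past the filter for CD8 Tnaive cells against MF, of which 5 were called the same way and none the opposite way. The same counts, 10 and 5, held for astrocytes against microglia, and 1 of 1 was called the same way for neurons against astrocytes. For microglia against MF it was 0 of 3 by limma, with Rpl4 at 1.11 by the probe used and -0.29 by its other, and for BM-DC against MF 0 of 1. Rps13 had 1.58 by its brighter probe and 3.09 by its other in CD8 Tnaive cells against MF, and Rpl29 had -1.26 and -3.29 in astrocytes against microglia. Rpl38, chosen after its values were seen, had 0.51 by the probe used and -1.20 by a dimmer probe in CD8 Tnaive cells against MF. Ribosomal protein genes have many processed pseudogenes, and cross-hybridisation was not tested.

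Genes that build ribosomes were called in several comparisons. Of 46 listed biogenesis genes 38 were tested, and in astrocytes 31 were called lower than in microglia and 2 higher, with a median of -1.75. Nop56, a core protein of the box C/D snoRNPs that guide rRNA methylation, averaged 5.93 in astrocytes and 10.13 in microglia, and Wdr43, a processome component, 5.70 and 8.91 in that order. In microglia against MF 23 were called higher and 1 lower (median 1.45), led by Rrp1b (2.93) and Nop56 (2.79). CD8 Tnaive cells had 17 higher and 1 lower than MF (median 0.83), led by Wdr43 (2.38) and Nob1 (2.01). Pes1, a factor for large-subunit maturation, was the gene lower in both of those comparisons (-1.73 and -2.18), and it was the 1 gene of the list called in ESdM against microglia, where it was higher by 1.37.

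In BM-DC, 12 biogenesis genes were called lower than in MF and 2 higher (median -0.58), with nucleolin (Ncl) at -2.60, while the median of the ribosomal protein genes was 0.16. Neurons had 7 higher and 1 lower than astrocytes (18.4% and 2.63%, against 14.8% and 17.6% of all genes). The background shares of all genes given above for each comparison apply to these counts and to those of the lists below.

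RNA polymerases I and III transcribe the rRNAs and tRNAs, and 21 of 28 listed genes were tested. In CD8 Tnaive cells 10 were called higher than in MF and 0 lower by limma, among them the polymerase I factor Taf1a (2.20) and the polymerase III factor Brf1 (2.12). In microglia 9 were higher than in MF, among them Polr1b (2.80), a polymerase I subunit gene, and Polr1d (2.37). In astrocytes 10 were lower than in microglia, with Polr1b at -3.44 and Polr1a at -2.12.

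Among 11 tested ribosome partners, which include elongation factors and nascent-chain proteins, 5 were called higher in CD8 Tnaive cells than in MF and 3 lower in astrocytes than in microglia. The elongation factor gene Eef1b2 had 1.38 in the first and -1.76 in the second. Of 29 tested initiation factors, 7 were lower and 2 higher in astrocytes than in microglia (24.1% and 6.9%, against 16.6% and 18.8% of all genes). In CD8 Tnaive cells 3 were higher and 1 lower than in MF (10.3% and 3.45%, against 14.4% and 16.7%). Eif4a2 was higher in both comparisons (2.31 and 1.95). Eif4ebp1, an inhibitor of cap-dependent initiation and target of mTORC1, was called lower in CD8 Tnaive cells than in MF by -3.71. Larp1, the binder of pyrimidine-tract mRNAs, was called lower in astrocytes than in microglia by -1.93.

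Of 24 listed proliferation genes 20 were tested. In CD8 Tnaive cells 13 were called lower than in MF and 0 higher by limma, with Pcna at -3.11, while the ribosomal protein median was 0.82. In astrocytes 19 were lower than in microglia, the direction most called ribosomal protein genes had there, and in BM-DC 18 were lower than in MF. Mitochondrial ribosomal protein genes serve the separate ribosome of mitochondria, and 72 were tested. In CD8 Tnaive cells against MF 4 were called higher and 9 lower, with a median of -0.25. Those shares were 5.56% and 12.5%, against 14.4% and 16.7% of all genes. In microglia against MF the mitochondrial genes had 22 higher and 1 lower, and in astrocytes against microglia 2 higher and 18 lower.

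Genes with and without a start-site tract are given side by side, with no test. In CD8 Tnaive cells against MF, the 24 tested genes with a tract had a median difference of 0.88 and 11 called higher, and the 25 without had 0.82 and 12.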

How the data were processed

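The authors' deposited scanner table gave the mean bead intensity of 45281 probes on 27 single-colour arrays, with no normalization between arrays as judged from its values. Beside each intensity the deposited columns hold a detection p-value. A deposited value table of the series held normalized intensity and served as an alternative. Per the labels' protocols, cells were lysed in TRIzol, the RNA was purified with RNeasy kits including a DNase I step, and a TargetAmp kit added biotin. Scanner software and genome build are not given in the sources used here.

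Intensities were background-corrected from the detection p-values and quantile normalized with neqc (offset 16) in limma 3.58.1 under R 4.3.3, and taken as log2. The filter required detection (p below 0.05) of a probe by 3 arrays or more, which 25001 probes met. The annotation table, which can be old, gave 1 symbol to 34885 probes, several to 18 and none to 10378. Each gene was read by its brightest probe, giving 12814 genes. One mean per group was fitted over the 27 arrays (19 residual degrees of freedom). ESdM is the mean of both lines. Precision is limited by how many arrays a group has.

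The members and lists were chosen with earlier results of these data known. Genes named are, per comparison, up to 10 called members with the largest rise and fall (the 5 with the largest difference where fewer than 5 were called), stalk proteins and paralogues, genes near the floor or the top, and from other lists up to 2 called genes per direction. The fit was tested on simulated data. Alternatives were median scaling, no background correction, the deposited value table, no filter, the mean of all probes, fewer arrays, replicate or chip blocks, and each array left out. Group labels come from titles, since every ESdM description carries the replicate number 3. The same replicate numbers recur in all groups but did not pair the arrays. No array duplicated another (smallest root mean square log2 difference 0.17). Protein sequences were not used here.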

Additional observations from a re-analysis of the deposited data

Results flagged for a closer look

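Of 116 combinations of a ribosomal protein gene with a group of 4 or 5 arrays, 3 had an array far from the others, where chance gives about 1 in 20. All 3 were in CD8 Tnaive cells. Array 2 was the highest for Rpl29, a large-subunit protein, with 13.12, against 12.76 to 12.84 on the other 4 arrays. The same array was the lowest for Rps6, with 12.44, against 12.88 to 13.01. Array 1 was the lowest for Rpl37, with 13.85, against 13.94 to 13.98.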

How the results depend on the processing

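No alternative reversed the direction of a ribosomal protein gene among those rerun. In each comparison these were the called genes, with the 5 largest differences where fewer than 5 were called. Most were thus picked for a large difference, so the absence of reversals says little about smaller ones. Genes of the other lists were not rerun. Counts were compared by size alone, and several moved, as given below. Of the results for the rerun genes under an alternative, 1310 kept their side of the threshold, 64 lost the call with the same direction and 2 gained it. With adjusted p alone the counts called higher and lower were 2 and 0 in ESdM against microglia, 36 and 3 in microglia against MF, 21 and 10 in BM-DC against MF, 4 and 44 in astrocytes against microglia, 32 and 2 in neurons against astrocytes and 45 and 3 in CD8 Tnaive cells against MF. Without background correction, and likewise on the deposited value table, 0 were higher in ESdM than in microglia, 1 higher in astrocytes than in microglia, and 0 lower than MF in microglia and in BM-DC. Under median scaling 2 were higher and 2 lower in microglia than in MF, and 2 lower in BM-DC and in CD8 Tnaive cells. The cause of these shifts was not tested. Leaving out each array in turn gave 0 to 1 lower in BM-DC than in MF (0 without MF array 4), 3 to 5 higher in neurons than in astrocytes, and 24 to 26 higher and 1 to 2 lower in CD8 Tnaive cells than in MF (2 without MF array 3 or CD8 Tnaive array 4). Same-numbered arrays correlated by -0.356 to 0.142, so the numbers were not taken as pairs. With a replicate block the counts stayed at 26 and 1 in CD8 Tnaive cells against MF, 26 lower in astrocytes, 10 higher in microglia and 7 higher in BM-DC, and the block changed 1 named call, Rplp2 in CD8 Tnaive cells (0.95). With chip as a random block (correlation 0.031 within a chip) those counts were the same. Differences between levels that both lie below the lowest detected level of an array (4.52 to 4.78) cannot be read.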
